A study of Mus musculus with 31 samples.

Results

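The genes described here are 9 immune checkpoint and costimulatory genes, Cd274, Pdcd1lg2, Cd80, Cd86, Cd40, Havcr2, Sirpa, Cd47 and Lgals9, chosen by symbol from the 24411 entries of a mouse count table. All 9 were found and all 9 passed the filter on low counts, as did 12337 genes in all. The RNA-seq data comprise 9 libraries of monocytes from C57BL/6J mice, sorted for CD11b and high Ly6C and against Ly6G and MHC-II. There were 3 groups of 3 libraries. Healthy blood came from mice without a tumor, LLC blood from mice carrying a subcutaneous Lewis lung carcinoma (LLC, a lung cancer line that grows in C57BL/6 mice), and LLC tumor from the tumors themselves. No genotype, age or treatment other than the tumor is given in the labels used here. The labels do not say whether the RNA-seq libraries of a group came from separate mice, so the p-values measure the spread between these libraries, which may be technical.

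Monocytes that enter a tumor meet T cells through sets of surface proteins. PD-L1 (Cd274) and PD-L2 (Pdcd1lg2) bind the inhibitory receptor PD-1, while CD80 and CD86 bind both the activating receptor CD28 and the inhibitory receptor CTLA-4 on T cells. CD40 receives a licensing signal from T cells through CD40 ligand, TIM-3 (Havcr2) is an inhibitory receptor for which galectin-9 (Lgals9) is a described ligand, and SIRP-alpha (Sirpa) on myeloid cells restrains phagocytosis when it binds CD47.

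The sequences upstream of the genes that were higher in the tumor are shown first, because interferon-gamma, hypoxia, NF-kB and AP-1 factors are textbook regulators of several of these genes. RefSeq promoter sequences on GRCm38.p6 matched 6 of the 9 genes. Cd86, Cd40 and Sirpa had no entry. Each sequence below is the 250 bases before the annotated start, 5′ to 3′ on the gene's strand, with motif matches in capitals. The motifs, searched on both strands, were the interferon-gamma activated site (GAS, TTCNNNGAA), the interferon-stimulated response element (ISRE, here GAAA repeated after 2 free bases), the cores ACGTG and GCGTG of the hypoxia response element, the kappaB site and the AP-1 site (TGANTCA).
Cd274: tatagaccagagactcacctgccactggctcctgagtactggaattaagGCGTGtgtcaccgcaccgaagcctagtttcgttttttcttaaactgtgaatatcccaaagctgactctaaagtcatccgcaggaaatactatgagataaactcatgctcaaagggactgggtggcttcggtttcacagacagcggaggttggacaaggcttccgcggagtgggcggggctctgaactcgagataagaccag
Pdcd1lg2: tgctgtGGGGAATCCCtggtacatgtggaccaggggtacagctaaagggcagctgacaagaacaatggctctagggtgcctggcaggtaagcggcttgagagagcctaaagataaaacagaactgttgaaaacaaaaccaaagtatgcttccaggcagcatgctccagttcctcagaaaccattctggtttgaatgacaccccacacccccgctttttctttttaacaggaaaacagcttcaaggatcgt
Cd80: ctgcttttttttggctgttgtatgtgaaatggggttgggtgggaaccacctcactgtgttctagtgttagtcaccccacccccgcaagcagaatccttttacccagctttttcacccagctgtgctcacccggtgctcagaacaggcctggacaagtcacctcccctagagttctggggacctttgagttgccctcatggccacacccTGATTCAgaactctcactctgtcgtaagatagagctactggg
Havcr2: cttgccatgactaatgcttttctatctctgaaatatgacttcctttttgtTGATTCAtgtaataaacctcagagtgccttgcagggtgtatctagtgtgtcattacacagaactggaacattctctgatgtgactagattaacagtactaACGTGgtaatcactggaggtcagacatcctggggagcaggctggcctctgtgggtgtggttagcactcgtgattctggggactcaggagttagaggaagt

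The Cd274 window (chr19:29367188-29367437, plus strand) held 1 GCGTG core at -201 to -197, counted from the start. The Pdcd1lg2 window (chr19:29410669-29410918, plus strand) held a kappaB match, GGGGAATCCC, at -244 to -235. The annotated spans of Cd274 and Pdcd1lg2 lie 22823 bases apart on chromosome 19. The Cd80 window (chr16:38458683-38458932, plus strand) held an AP-1 match, TGATTCA, at -42 to -36. The Havcr2 window (chr11:46454681-46454930, plus strand) held the same 7 letters at -200 to -194 and an ACGTG core at -100 to -96. Matches of different motifs did not overlap in these windows. The windows of Cd274 and Cd80, like that of Cd47, lie inside the annotated spans of their genes, which begin farther upstream.

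Such matches are common. Among 32851 promoter windows of the same length, ACGTG was present in 16.6%, GCGTG in 28.2%, the AP-1 site in 6.75%, the kappaB site in 3.90%, GAS in 7.02% and ISRE in 2.98%. No GAS match was found in the windows of the 6 genes. The Lgals9 window (chr11:78984925-78985174, minus strand) held an ISRE match, TTTCTTTTTC, at -55 to -46. The Cd47 window (chr16:49855404-49855653, plus strand) held 1 ACGTG core and 2 GCGTG cores in a sequence of 73.2% GC, against a median of 52.4% over all windows. In the main fit of all 9 libraries, Lgals9 and Cd47 did not pass the test in any of the comparisons below, though they did under some alternatives. A match describes letters only; binding was not measured here.

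Total counts ranged from 10457492 to 20706412 per library. Levels are given as TMM-scaled CPM, that is, counts scaled to the library size (CPM) after edgeR's TMM correction, so they compare libraries for 1 gene and not genes with each other. LLC tumor 1 stood apart from the other tumor libraries, with a TMM factor of 0.798 against 0.968 and 1.00 (blood libraries 1.03 to 1.07). On the TMM scale it had the highest level of every one of the 9 genes within its group, also for those that were lower in the tumor. By CPM on library totals alone Sirpa was at 677.5 in LLC tumor 1 and 678.7 in LLC tumor 3. Calls of the 9 genes and of pathway genes against LLC blood that change without it are given both ways. The sorting markers were read in all libraries: Itgam, which encodes CD11b, was at 865 to 919 CPM in healthy blood, 1272 to 1431 in LLC blood and 3302 to 4663 in LLC tumor. Ly6c2, which encodes Ly6C2, was at 1522 to 1673, 1031 to 1177 and 273 to 592 CPM in the same order. H2-Ab1, an MHC-II gene, was at 118 to 213, 47.0 to 79.6 and 42.3 to 97.2 CPM; Ly6g was not used here.

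Markers of other cells differed between the groups and are set beside all results on the tumor. Of the 7 mature macrophage markers, 6 were higher and 1 lower in LLC tumor than in LLC blood, and their sum was 651.3 to 757.0 CPM in LLC blood and 1500 to 2513 in the tumor (712.8 to 827.4 in healthy blood). Of the 6 fibroblast markers 3 were higher (Col3a1, Dcn and Lum), with sums of 1162 to 4019 CPM in the tumor. Those sums were 5.81 to 16.1 CPM in healthy blood and 392.1 in LLC blood 1, while LLC blood 2 and 3 had 3.44 and 4.36. On average most of the tumor sum was Col3a1, at 2302 ± 1236 CPM (SD, n = 3). Col1a1, Col1a2 and Pdgfrb were not called against LLC blood. Sums of the 6 tumor epithelium markers were 1.31 to 1.94 CPM in healthy blood, 1.76 to 2.64 in LLC blood and 78.0 to 101.5 in the tumor. In the tumor Cdh1 averaged 55.1 CPM, Krt18 20.9 and Krt8 10.1. Epcam and Krt19 averaged 0.0596 and 0.0894 CPM there, and Cldn4 was at 0 in every library. The 6 endothelial markers summed to 12.5 to 18.1, 10.6 to 12.9 and 51.2 to 87.3 CPM. The 10 dendritic cell markers, whose cells are rich in Cd80, Cd86 and Cd40, summed to 80.7 to 85.3, 23.5 to 38.8 and 23.0 to 85.4 CPM. Most of the tumor sum was Fscn1, which encodes the actin-bundling protein fascin, at 51.2 ± 32.8 CPM in LLC tumor and 0.29 in LLC blood. Of the 7 tested, Flt3 (-2.79 ± 0.20 SE on the log2 scale, edgeR adjusted p = 3.44e-06) and Cd209a (-3.09 ± 0.66, adjusted p = 0.00275) were lower in the tumor than in LLC blood. The 2 called higher were Fscn1 and Clec9a (1.14 ± 0.41, adjusted p = 0.0352), the latter at 2.93 CPM in LLC tumor and 1.34 in LLC blood.

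Lymphocyte markers were highest in healthy blood. All 7 tested T cell markers and all 7 NK cell markers were called lower in LLC blood. The 8 T cell markers summed to 39.0 to 154.5 CPM in healthy blood, 5.12 to 10.1 in LLC blood and 2.23 to 3.62 in the tumor. The 7 NK cell markers summed to 189.8 to 432.7, 33.9 to 50.3 and 6.97 to 20.1 CPM. The 7 B cell markers reached 183.5 CPM in healthy blood 2 and 17.0 to 24.5 in the other healthy libraries, 9.86 to 13.4 in LLC blood and 1.88 to 2.15 in the tumor, where Cd79a, Ms4a1, Fcer2a and Blk were among those at 0. Neutrophil markers (6 of 7 in the table) summed to 644.9 to 721.4, 685.1 to 794.8 and 324.4 to 344.8 CPM. Most of these sums was Csf3r, averaging 509.6, 467.5 and 158.7 CPM, and Mmp8, averaging 167.2, 267.9 and 165.7. Group means of Cxcr2, Retnlg, Ngp and Camp were at most 10.3 CPM (Ngp in LLC blood). Csf3r, Mmp8 and Camp were called lower in LLC tumor than in LLC blood, and Cxcr2, Retnlg and Ngp were not called. The 9 monocyte markers stayed abundant in all groups, at 11202 to 12247, 11506 to 11643 and 9576 to 14604 CPM. Ly6C-low monocyte markers (7 genes) summed to 2224 to 2342, 1579 to 2237 and 1156 to 1883 CPM. These sums hide opposite changes. In LLC tumor against LLC blood 5 were called lower (Ace, Spn, Treml4, Cx3cr1 and Eno3) and 2 higher (Cd9 and Nr4a1). The median log2 fold change of the 7 was -1.74, while Cd9 rose by 5.45 and Nr4a1 by 0.69. On average most of the tumor sum was Nr4a1 and Cd9, at 589.7 and 489 CPM. The part of these other cells in the changes below was not tested, and in such bulk libraries fewer cells of a type and less RNA per cell cannot be told apart.

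**Figure D1:**
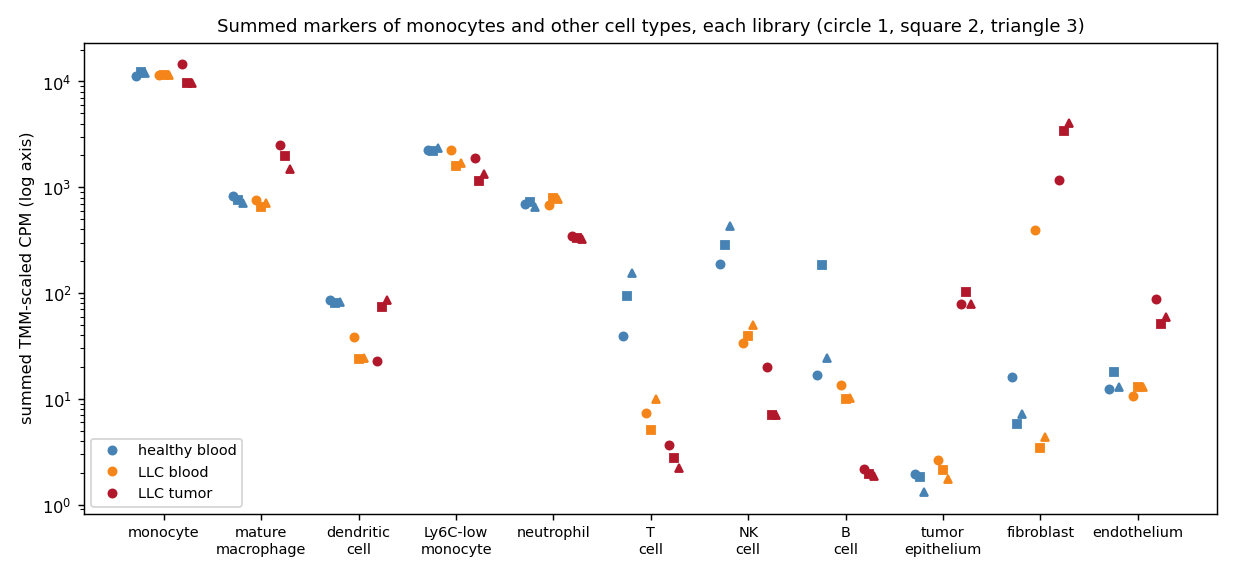
Summed TMM-scaled CPM (log axis) of the markers of 11 cell types in each of the 9 libraries, coloured by group, with the shape giving the replicate number. Fibroblast markers were between 1162 and 4019 CPM in the tumor libraries and at 392.1 CPM in LLC blood 1, while monocyte markers were at 9576 CPM or more in all libraries.

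Between blood monocytes of healthy and of tumor-bearing mice, 0 of the 9 genes passed edgeR's quasi-likelihood test at an adjusted p under 0.05. In the same comparison 14.0% of all tested genes were called higher and 9.61% were called lower. DESeq2 and limma-voom also called 0 of the 9, as did edgeR's unadjusted p under 0.05. In LLC tumor against LLC blood, 5 genes were higher (Cd274, Cd80, Havcr2, Cd86 and Pdcd1lg2) and 2 were lower (Sirpa and Cd40), against 29.6% and 31.7% of all tested genes. Against healthy blood the same 5 and 2 were called, against 33.5% and 33.0% of all tested genes; both comparisons use the same tumor libraries. Without LLC tumor 1, 2 genes were called lower in blood (Cd40 and Lgals9). The lower genes in the tumor were then 3 against LLC blood, with Cd47 added, and 4 against healthy blood, with Cd47 and Lgals9 added. Of all 12864 genes tested in that fit, 2883 were lower in blood, 4220 against LLC blood and 4736 against healthy blood. With all 9 libraries, the median log2 fold change of the 9 genes was 1.68 and 1.82 in the tumor comparisons. That of all genes was -0.03 and -0.00. Of all tested genes, 28.7% were called with a change of at least 2-fold in LLC tumor against LLC blood.

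**Figure D2:**
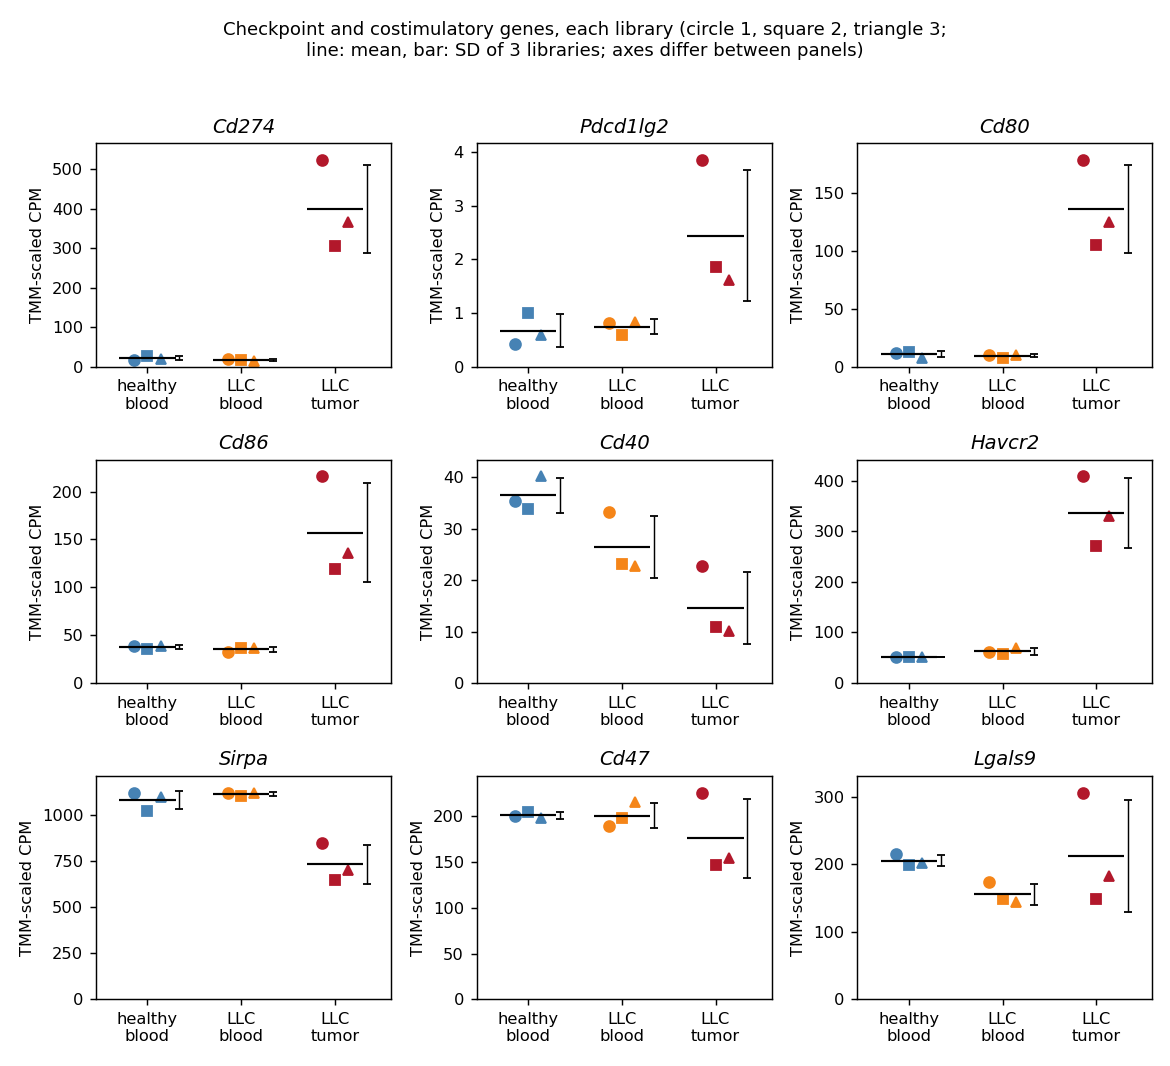
TMM-scaled CPM of each gene in each library by group, with the mean as a line and the SD of 3 libraries as a bar; the axes differ between panels. Cd274, Cd80, Cd86 and Havcr2 lie far above both blood groups in every tumor library, Sirpa and Cd40 lie below, and LLC tumor 1 (circle) is the highest tumor library throughout.

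Cd274 (ENSMUSG00000016496), which encodes PD-L1, had the largest change of the 9. Its levels were 17.6, 26.9 and 20.7 CPM in healthy blood 1 to 3 and 19.2, 16.6 and 15.2 CPM in LLC blood, with LLC tumor libraries at 523, 306.6 and 366.8 CPM. The blood groups overlapped, while every tumor library stood far above every blood library. The tumor level was 23.6-fold that of LLC blood (log2 fold change 4.56 ± 0.24 SE, edgeR adjusted p = 5.85e-07) and 18.3-fold that of healthy blood (4.19 ± 0.23, adjusted p = 6.86e-07). Without LLC tumor 1 the log2 fold change against LLC blood was 4.35. By size of change in LLC tumor against LLC blood Cd274 ranked 643 of 12337 genes.

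Pdcd1lg2 (ENSMUSG00000016498), which encodes the second PD-1 ligand, was barely detected. It had 6, 17 and 10 counts in healthy blood, 9, 9 and 18 in LLC blood, and LLC tumor had 34, 21 and 18. In TMM-scaled CPM these were 0.415 to 1.01, 0.584 to 0.834 and 1.61 to 3.85, and the tumor libraries did not overlap the blood libraries. The tumor level was 3.21-fold that of LLC blood (log2 fold change 1.68 ± 0.46 SE, 95% interval 0.65 to 2.72, edgeR adjusted p = 0.0101) and 3.53-fold that of healthy blood (1.82 ± 0.46, adjusted p = 0.00632). At these counts the size of the change is known only loosely. The log2 fold changes were 1.24 (adjusted p = 0.0255) and 1.32 (adjusted p = 0.0174) without LLC tumor 1.

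The log2 ratio of Cd274 to Pdcd1lg2 counts within a library does not depend on the scaling between libraries. It was 5.30, 4.70 and 5.06 in healthy blood, 4.48, 4.75 and 4.15 in LLC blood, and rose to 7.07, 7.33 and 7.79 in the tumor libraries. The tumor ratio was thus 7.65-fold that of LLC blood, without overlap between the groups. An exact two-sided permutation test of 3 against 3 libraries gave p = 0.1, the smallest it can give (adjusted p = 0.133 over the 12 ratio tests).

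Cd80 (ENSMUSG00000075122) and Cd86 (ENSMUSG00000022901) encode the B7 ligands of CD28 and CTLA-4. Cd80 was at 12.2, 12.4 and 7.96 CPM in healthy blood and 9.83, 7.85 and 10.3 in LLC blood, with LLC tumor libraries at 178.7, 105.1 and 125.3. The blood groups overlapped and all tumor libraries stood above them. Its tumor level was 14.6-fold that of LLC blood (log2 fold change 3.86 ± 0.25 SE, edgeR adjusted p = 1.58e-06) and 12.6-fold that of healthy blood (3.65 ± 0.24, adjusted p = 1.71e-06).

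Cd86 was at 38.5, 35.8 and 38.8 CPM in healthy blood and 32.6, 36.5 and 36.7 in LLC blood, with LLC tumor libraries at 215.9, 119.1 and 135.9. Again the blood groups overlapped and the tumor libraries did not reach down to them. Its tumor level was 4.44-fold that of LLC blood (log2 fold change 2.15 ± 0.20 SE, edgeR adjusted p = 1.54e-05) and 4.16-fold that of healthy blood (2.06 ± 0.20, adjusted p = 1.67e-05). The log2 ratio of Cd80 to Cd86 counts was -1.82 ± 0.40 (SD, n = 3) in healthy blood, -1.92 ± 0.26 in LLC blood and -0.19 ± 0.08 in LLC tumor. Cd80 therefore gained 3.32-fold on Cd86 between LLC blood and the tumor, without overlap (exact permutation p = 0.1, the smallest possible; adjusted p = 0.133).

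**Figure D3:**
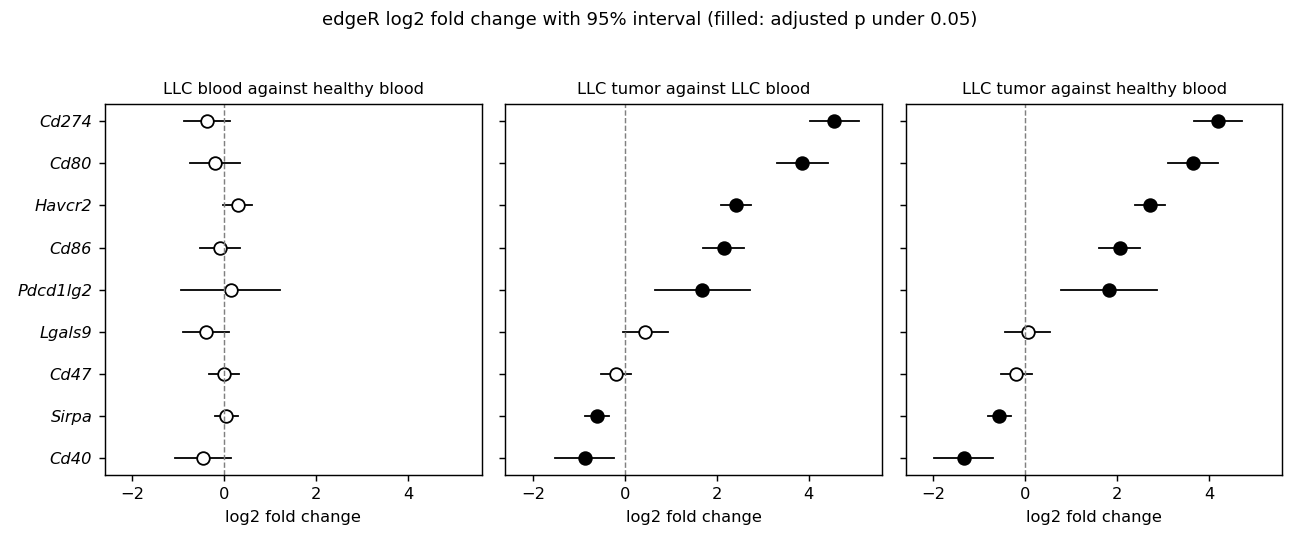
The edgeR log2 fold change of each gene with its 95% interval in the 3 comparisons, ordered by the change in LLC tumor against LLC blood; filled points had an adjusted p under 0.05. No gene is filled in the blood comparison, and Cd274 at 4.56 and Cd40 at -0.87 mark the ends of the range in LLC tumor against LLC blood.

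Cd40 (ENSMUSG00000017652), the receptor for CD40 ligand, was lower in the tumor. It was at 35.4, 33.7 and 40.1 CPM in healthy blood and 33.3, 23.2 and 22.8 in LLC blood, with LLC tumor libraries at 22.6, 10.8 and 10.1. The 3 groups followed in this order without overlap, but narrowly: LLC tumor 1 nearly reached the lowest LLC blood library and LLC blood 1 nearly reached the lowest healthy library. By CPM on library totals alone the blood groups overlapped, with healthy blood 2 at 34.9 and LLC blood 1 at 35.0. The tumor level was 2.53-fold lower than in healthy blood (log2 fold change -1.34 ± 0.29 SE, edgeR adjusted p = 0.00245) and 1.83-fold lower than in LLC blood (-0.87 ± 0.29, adjusted p = 0.0247). These log2 fold changes were -1.82 (adjusted p = 2.49e-05) and -1.30 (adjusted p = 0.00028) without LLC tumor 1. The call against LLC blood was lost when only the 6 libraries compared were fitted (-0.84, adjusted p = 0.0632), and without LLC blood 1 (-0.70, adjusted p = 0.0759), LLC tumor 2 (-0.70, adjusted p = 0.0828) or LLC tumor 3 (-0.66, adjusted p = 0.0864). The step between the blood groups was -0.47 ± 0.27 and not called (adjusted p = 0.245), with an adjusted p of 0.0285 in the 6-library fit and 0.0213 without LLC tumor 1.

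Havcr2 (ENSMUSG00000020399), which encodes TIM-3, stood at 51.5, 50.8 and 51.0 CPM in the healthy libraries. LLC blood libraries were at 60.6, 57.2 and 69.6 CPM, and LLC tumor libraries at 408.8, 270.3 and 330.2 CPM. The 3 groups did not overlap. The step between the blood groups was not called (log2 fold change 0.29 ± 0.14 SE, edgeR adjusted p = 0.169), though it was in the fit of those 6 libraries alone (0.28, adjusted p = 0.0179) and with library totals as the only scaling (0.32, adjusted p = 0.0361). The tumor level was 5.38-fold that of LLC blood (2.43 ± 0.15, adjusted p = 1.14e-06) and 6.58-fold that of healthy blood (2.72 ± 0.15, adjusted p = 5.91e-07).

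Lgals9 (ENSMUSG00000001123), which encodes galectin-9, was at 214.7, 199.2 and 201.7 CPM in healthy blood and 173.0, 148.6 and 144.7 in LLC blood, with LLC tumor libraries at 306.0, 149.1 and 182.2. LLC blood lay below healthy blood without overlap, and the tumor libraries spread across both groups. No comparison passed the test: the log2 fold change was -0.40 ± 0.22 SE in blood (edgeR adjusted p = 0.223), 0.45 ± 0.22 in LLC tumor against LLC blood (adjusted p = 0.106) and 0.05 ± 0.22 against healthy blood (adjusted p = 0.859). The 95% interval of the last ran from -0.45 to 0.55. These values turned on single libraries. Without LLC tumor 1 the blood step was -0.45 (adjusted p = 0.00565), the tumor lay lower than healthy blood (-0.33, adjusted p = 0.0194) and the step from LLC blood to the tumor was 0.12. Without LLC tumor 2 that last step was 0.65 (adjusted p = 0.0162), and the fit of the blood libraries alone gave -0.41 (adjusted p = 0.00419).

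The log2 ratio of Havcr2 to Lgals9 counts was -2.06, -1.97 and -1.98 in healthy blood and -1.51, -1.38 and -1.06 in LLC blood, with LLC tumor libraries at 0.42, 0.86 and 0.86. The groups followed in this order without overlap. The ratio was 1.61-fold higher in LLC blood than in healthy blood and another 4.07-fold higher in the tumor (exact permutation p = 0.1 for each step, the smallest possible; adjusted p = 0.133). It was the only one of the 4 ratios without overlap between the blood groups; those of the other 3 overlapped, with exact p = 0.2, 0.7 and 0.6.

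**Figure D4:**
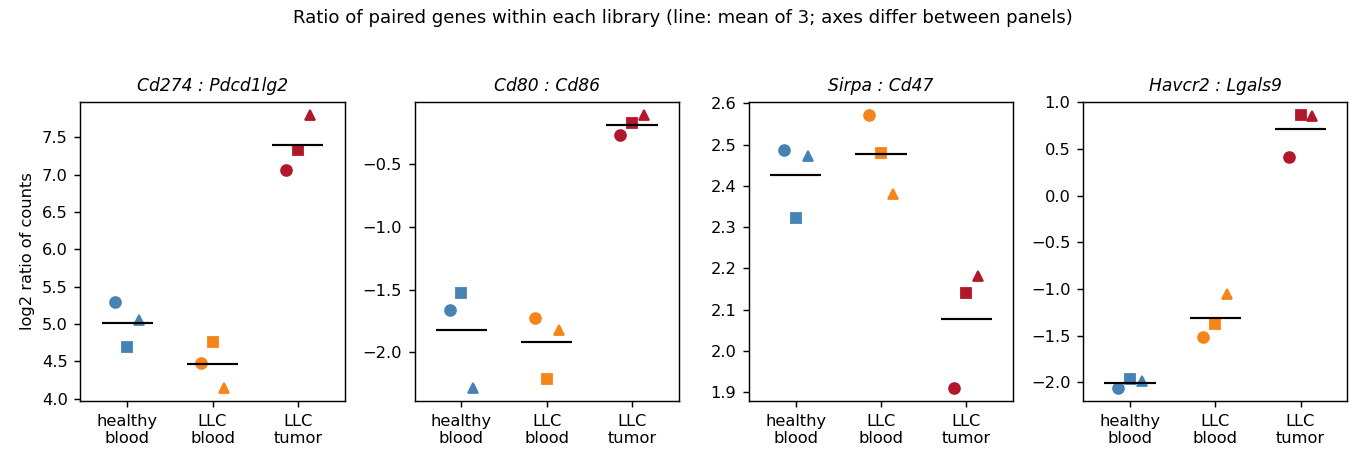
Log2 ratio of the counts of 2 genes within each library, with the mean of 3 as a line; the axes differ between panels. The tumor libraries lie apart from both blood groups in all 4 panels, higher for Cd274 to Pdcd1lg2, Cd80 to Cd86 and Havcr2 to Lgals9 and lower for Sirpa to Cd47.

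Sirpa (ENSMUSG00000037902), the receptor of the CD47 signal, was at 1124, 1027 and 1099 CPM in healthy blood and 1123, 1104 and 1122 in LLC blood, with LLC tumor libraries at 849.2, 648.9 and 702.0. The blood groups overlapped and all tumor libraries were lower. The tumor level was 1.52-fold lower than in LLC blood (log2 fold change -0.61 ± 0.11 SE, edgeR adjusted p = 0.00118) and 1.48-fold lower than in healthy blood (-0.56 ± 0.11, adjusted p = 0.00165).

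Cd47 (ENSMUSG00000055447), the ligand of SIRP-alpha, is made by most cells. It was at 200.3, 205.2 and 198.1 CPM in healthy blood and 189.0, 197.8 and 215.2 in LLC blood, with LLC tumor libraries at 225.9, 147.3 and 154.8. On this scale LLC tumor 1 was the highest of all 9 libraries, and the other tumor libraries were the lowest. By CPM on library totals alone LLC tumor 1 was at 180.2, below every blood library (198.6 to 224.2), with the other tumor libraries at 147.0 and 149.7. The log2 fold change was -0.19 ± 0.15 SE against LLC blood (95% interval -0.52 to 0.14, edgeR adjusted p = 0.282) and -0.19 ± 0.15 against healthy blood (adjusted p = 0.266). Without LLC tumor 1 Cd47 was called lower in both, at -0.38 (adjusted p = 0.000584) and -0.44 (adjusted p = 0.000217). With library totals as the only scaling the values were -0.41 (adjusted p = 0.00232) and -0.39 (adjusted p = 0.00299), while the median of all genes moved to -0.23 and -0.17; with upper-quartile factors the value against healthy blood was -0.30 (adjusted p = 0.0444). The log2 ratio of Sirpa to Cd47 fell by 0.40 between LLC blood and the tumor, from 2.48 ± 0.09 to 2.08 ± 0.15 (SD, n = 3), without overlap (exact permutation p = 0.1, the smallest possible; adjusted p = 0.133).

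Among the 9 genes, the patterns over the 9 libraries were compared by the root mean square (RMS) difference of log2(CPM + 1), each gene centred on its mean. Sirpa and Cd47 were closest (0.20), Cd86 and Havcr2 differed by 0.31 and Cd274 and Cd80 by 0.39, while Cd274 and Cd40 were farthest apart (2.56). Values were not scaled to the size of change, so genes that change little lie close together. With all 9 libraries Sirpa was called lower in the tumor and Cd47 was not. The same measure was taken over 6911 genes whose mean was 20 CPM or more. Near to Cd274 was Got1 (0.21), an aspartate aminotransferase, at 8.31 ± 1.33 CPM in healthy blood, 8.77 ± 0.44 in LLC blood and 171.9 ± 43.2 in LLC tumor (SD, n = 3). Nearest to Cd80 were C5ar1 (0.19), the receptor for complement C5a, and Tiparp (0.20).

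Nearest to Havcr2 were Slc16a3 (0.09), a lactate transporter, and Ldha (0.11), lactate dehydrogenase. Slc16a3 was at 108.0 ± 0.70 CPM, 118.9 ± 4.46 and 682.6 ± 161.1 in the 3 groups, and Ldha at 285.6 ± 22.6, 330.0 ± 7.96 and 1856 ± 505.7. Nearest to Cd86 were Egln1 (0.10), a prolyl hydroxylase of the HIF pathway, and Tatdn2 (0.10). Nearest to Cd40 were Irf8 (0.15), a transcription factor of the monocyte and dendritic cell lineage, and 5430427O19Rik (0.15). Irf8 was at 347.8 ± 32.1, 271.7 ± 38.8 and 159.6 ± 55.8 CPM. For the remaining genes the nearest were Suco and Lpxn (Pdcd1lg2), Fam134c and Rbmx (Sirpa), Ostm1 and Scp2 (Cd47) and Prdx5 and Vhl (Lgals9). The added 1 CPM compresses the pattern of a gene as low as Pdcd1lg2.

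Other genes of these pathways were read from lists, and their changes are given on the log2 scale. Some genes are named only to account for counts or sums, after their values were seen: Tnfrsf14, Hmgb1, Icam1, Tnfsf8, Tnfsf9, Sirpb1a, Sirpb1b, Arnt, Cd28, Fscn1, Flt3, Cd209a and Clec9a. The same holds for the tumor epithelium, fibroblast, neutrophil and Ly6C-low monocyte markers, genes whose call changes without LLC tumor 1, and those named by symbol alone. Of 17 other ligands of the B7 family and related families, 12 were tested, and in LLC tumor against LLC blood 6 were higher and 4 lower, with a median log2 fold change of 0.37 (all genes -0.03; 29.6% were called higher and 31.7% lower). On leaving out LLC tumor 1, 6 were higher and 5 lower, with 4632428N05Rik, the gene of VISTA, added (-0.29, adjusted p = 0.0104). Of all 12864 genes tested in that fit, 4416 were higher and 4220 lower. Pvr, a ligand of TIGIT, rose by 2.56 ± 0.12 SE (edgeR adjusted p = 3.58e-07). Ceacam1 fell by 1.42 ± 0.12 (adjusted p = 8.03e-06) and Cd48, a ligand of 2B4, fell by 1.13 ± 0.17 (adjusted p = 0.000361). The other genes called lower were Icam1 and Tnfrsf14. In blood 1 was higher, Tnfrsf14, which encodes the receptor HVEM (1.02 ± 0.13, adjusted p = 0.00102), and 2 were lower, Hmgb1 and Cd48. There 14.0% of all tested genes were called higher and 9.61% lower. Against healthy blood 7 were higher and 4 lower (all tested genes 33.5% and 33.0%). Of 7 TNF-family costimulatory ligands 3 were tested. Tnfsf9, the 4-1BB ligand (3.88 ± 0.38, adjusted p = 2.19e-05), and Tnfsf8 (2.04 ± 0.63, adjusted p = 0.0182) were higher in LLC tumor than in LLC blood, none was lower, and none was called in blood. The call of Tnfsf8 was lost without LLC tumor 1 (1.21, adjusted p = 0.0597), and Tnfsf14 was then called higher in blood (0.56, adjusted p = 0.00269). Tnfsf14 was higher in the tumor than in healthy blood (1.03 ± 0.22, adjusted p = 0.00272), and its change against LLC blood was 0.42 ± 0.22 (adjusted p = 0.123).

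Of 13 tested inhibitory receptors of myeloid cells and their phosphatases, 5 were higher and 5 lower in LLC tumor against LLC blood (median 0.02), shares near those of all tested genes, at 29.6% and 31.7%. In the fit without LLC tumor 1, 5 were higher and 7 lower, with Milr1 (-0.18, adjusted p = 0.0389) and Inpp5d (-0.23, adjusted p = 0.0087) added. Lilrb4a, an inhibitory leukocyte receptor, rose by 1.87 ± 0.11 SE (edgeR adjusted p = 1.22e-06) and Cd200r1, the receptor for CD200, by 1.61 ± 0.18 (adjusted p = 4.62e-05). Cd300a fell by 1.96 ± 0.11 (adjusted p = 6.94e-07). The other genes called were Cd300lf, Pilra and Clec4a2, higher, and Pirb, Siglece, Ptpn6 and Ptpn11, lower. In blood 4 of the 13 were higher (Siglece, Cd300lf, Cd200r1 and Ptpn11) and 0 lower (all tested genes 14.0% and 9.61%). Against healthy blood 4 were higher in the tumor (Lilrb4a, Cd300lf, Pilra and Cd200r1) and 2 lower (Cd300a and Ptpn6), against 33.5% and 33.0% of all tested genes. These counts were 7 and 2 in blood and 4 and 5 against healthy blood without LLC tumor 1. Of all 12864 genes tested in that fit, 2181 were higher and 2883 lower in blood. These numbers were 4416 and 4220 against LLC blood and 4687 and 4736 against healthy blood. Besides Sirpa, the SIRP genes Sirpb1a and Sirpb1b were tested and neither was called against LLC blood (-0.40 ± 0.20, adjusted p = 0.108, and -0.38 ± 0.22, adjusted p = 0.161), while Sirpb1b was lower than in healthy blood (-0.72). Both were called lower against LLC blood without LLC tumor 1, at -0.65 (adjusted p = 0.00143) and -0.72 (adjusted p = 0.000131). The reads of these near-identical paralogs may have been split between them.

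The interferon-gamma pathway is a known inducer of Cd274. Of 12 genes listed around this pathway and Cd274, 4 were higher and 6 lower in LLC tumor against LLC blood. Their median was -0.43, and 29.6% of all tested genes were higher and 31.7% lower. The list and its counts include Cmtm4, called higher, and Cmtm6, called lower, which are not themselves genes of interferon-gamma signalling. The lower genes were 7 without LLC tumor 1, with Irf2 added (-0.44, adjusted p = 0.000158). Socs3 rose by 1.50 ± 0.16 SE (edgeR adjusted p = 3.35e-05), and this suppressor of cytokine signalling was also higher in LLC blood than in healthy blood (1.26 ± 0.16, adjusted p = 0.000779). Jak2, a kinase of the pathway, rose by 1.25 ± 0.12 (adjusted p = 1.94e-05). Socs1 and Cmtm4 were also called higher, and the genes called lower included both receptor chains, Ifngr1 and Ifngr2. In blood Socs3 alone was higher and Socs1 alone lower (all tested genes 14.0% and 9.61%). Against healthy blood 5 were higher and 7 lower (all tested genes 33.5% and 33.0%). Leaving out LLC tumor 1 gave 2 higher and 7 lower in blood and 4 and 7 against healthy blood, where the call of Socs1 was lost (0.49, adjusted p = 0.0878). Of all 12864 genes tested in that fit, 2181 were higher and 2883 lower in blood. These numbers were 4416 and 4220 against LLC blood and 4687 and 4736 against healthy blood.

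Of 14 genes of CD40 and NF-kB signalling, 5 were higher and 6 lower in LLC tumor against LLC blood (median -0.06; all tested genes 29.6% and 31.7%). When LLC tumor 1 was left out the lower genes were 7, with Rel added (-0.49, adjusted p = 0.002). Tnfaip3 (4.13 ± 0.51 SE, edgeR adjusted p = 9.59e-05) and Nfkbia (3.42 ± 0.36, adjusted p = 3.28e-05), both feedback inhibitors of NF-kB, rose, and Traf5, an adaptor, fell by 1.00 ± 0.10 (adjusted p = 2.39e-05). Both were highest in LLC tumor 1, with Tnfaip3 at 993.4, 242.8 and 321.6 CPM and Nfkbia at 1811, 658.3 and 830.8 CPM in LLC tumor 1 to 3. All 3 tumor libraries stood above LLC blood, at 25.2 to 38.6 and 88.4 to 115.8 CPM. Their changes without that library were 3.29 (adjusted p = 4.94e-07) and 2.89 (adjusted p = 4.45e-07). The summed level of the list was 4003 CPM in LLC tumor 1 and 1870 and 2193 in the other tumor libraries, against 1327 to 1455 in LLC blood. Traf1, Traf6 and Rela were also called higher. In blood 1 was higher (Rel) and 3 lower (Traf1, Traf5 and Rela), against 14.0% and 9.61% of all tested genes. Against healthy blood 5 were higher and 6 lower (all tested genes 33.5% and 33.0%). Without LLC tumor 1, 2 were higher and 8 lower in blood and 5 and 7 against healthy blood. Of all 12864 genes tested in that fit, 2181 were higher and 2883 lower in blood. These numbers were 4416 and 4220 against LLC blood and 4687 and 4736 against healthy blood.

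Genes of the hypoxia-inducible factor pathway were higher in the tumor as a group. Of 11, 9 were higher and 0 lower against LLC blood, where 29.6% of all tested genes were called higher and 31.7% lower. Against healthy blood 10 were higher and 0 lower (all tested genes 33.5% and 33.0%). The median against LLC blood was 2.49 (all genes -0.03). Vegfa, the angiogenic growth factor, rose by 9.36 ± 0.61 SE (edgeR adjusted p = 1.97e-06), Egln3 by 7.20 ± 0.30 (adjusted p = 2.09e-07) and the glucose transporter Slc2a1 by 4.83 ± 0.20 (adjusted p = 2.08e-07). In blood 1 of the 11 was higher, Arnt (0.31 ± 0.07, adjusted p = 0.00936), and 0 lower (all tested genes 14.0% and 9.61%). Without LLC tumor 1, 9 of the 11 were higher and 0 lower in each tumor comparison, and 4 were higher and 1 lower in blood. Of all 12864 genes tested in that fit, 2181 were higher and 2883 lower in blood. These numbers were 4416 and 4220 against LLC blood and 4687 and 4736 against healthy blood.

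Of 5 T cell genes that act opposite these ligands and receptors, Ctla4, Pdcd1, Icos and Cd40lg were too low to be tested. Cd28 alone was tested and was at 3.73 CPM in healthy blood, 0.46 in LLC blood and 8.54 in LLC tumor. It was lower in LLC blood than in the healthy libraries (-3.01 ± 0.66 SE, edgeR adjusted p = 0.0112) and higher in the tumor than in LLC blood (4.19 ± 0.67, adjusted p = 0.000493). The change of Cd28 in the tumor against healthy blood was 1.18 ± 0.55 and not called (adjusted p = 0.0849). The T cell markers Cd3d, Cd3e and Cd3g were at 0.304, 0.172 and 0.207 CPM on average in the tumor.

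**Figure D5:**
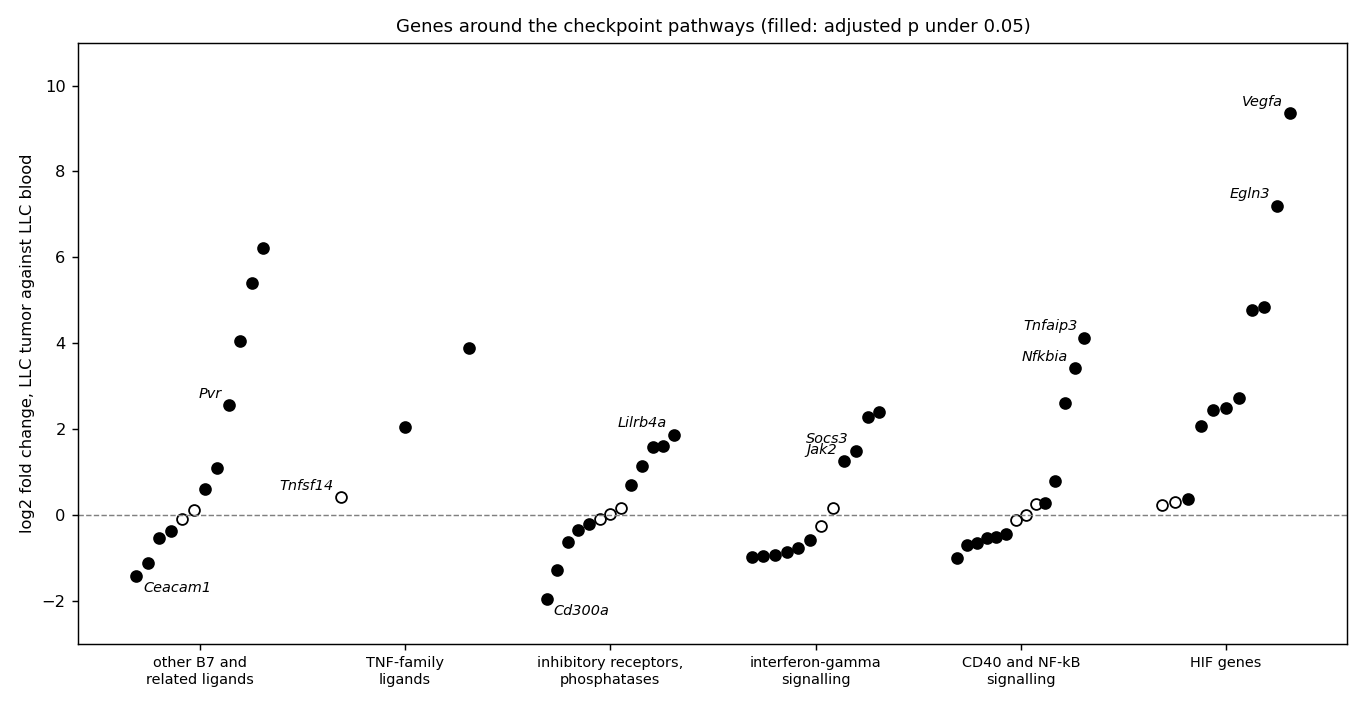
The edgeR log2 fold change in LLC tumor against LLC blood of each tested gene in 6 pathway lists, sorted within a list; filled points had an adjusted p under 0.05, and the labels name up to 2 genes a list. The interferon-gamma and NF-kB lists lie on both sides of 0, while no gene of the HIF list is called lower and Vegfa is highest at 9.36.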

How the data were processed

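RNA-seq tables of 9 libraries were used; the other 22 of the 31 samples in the series (chromatin assays) were not analysed here. The authors deposited estimated counts per gene, not normalized, of which 8.56% to 9.73% per library were not whole; they were rounded. The authors also deposited a CPM table of 10693 genes, in which 100% of values came out as whole reads (tolerance 0.05); these reads served as an added alternative, which called 2584, 6792 and 7236 genes in the 3 comparisons. The submitters' processing notes name Trim Galore, cutadapt 3.4, STAR 2.6.1d, Salmon 1.9.0, edgeR and mm10 for the series, without roles. The blood columns are headed BM, taken here as blood monocyte from the sample descriptions, a reading that the tables alone do not settle against bone marrow.

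edgeR 4.0.16 (R 4.3.3) fitted all 9 libraries with the group as the only term (quasi-likelihood, TMM, filterByExpr), keeping 12337 of 18544 genes with a count. P-values were adjusted by Benjamini-Hochberg within each comparison over all tested genes. Intervals use the t quantile of the model. Ratios of 2 genes had 0.5 added to each count and were tested by exact two-sided permutation. Alternatives, with limma 3.58.1 and DESeq2 1.42.0 among them, are in the closing section. The code was tested on simulated data. Named genes are all 9, up to 3 called genes per list, chosen by size of change in LLC tumor against LLC blood among those averaging 20 CPM or more, the 2 nearest in pattern to each, and the sorting markers; exceptions are stated, and a few genes that the rule would name are not reported here. The members and lists were chosen with earlier results of these data known.

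Sequences are from RefSeq (GRCm38.p6, the same coordinates as mm10). Transcript lengths were not used here, so levels are not compared between genes. In the lists, Vsir was read as 4632428N05Rik and Nectin3 as Pvrl3, and Nectin2, Cd58, Lilrb4b, Lilrb4, Sirpb1c and Ly6g were not used here.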

Additional observations from a re-analysis of the deposited data

How the results depend on the processing

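Of 486 values of the 9 genes under alternative settings, 455 kept their direction and their side of the threshold, 4 lost a call, 12 gained one in the same direction and 15 changed sign, 1 of them with a call. The calls of Cd274, Cd80, Cd86, Havcr2, Pdcd1lg2 and Sirpa in both tumor comparisons held under every alternative at an adjusted p under 0.05; those of Cd40, Cd47, Lgals9 and the blood steps that moved are given with the genes. All changes of sign were in comparisons not called with all 9 libraries. For Lgals9 in LLC tumor against healthy blood the log2 fold change was -0.0675 with upper-quartile factors, -0.160 with library totals, -0.0120 with limma-voom, -0.0158 without the low-count filter, -0.00495 with the replicate block, -0.0105 on the reads of the CPM table (chosen after seeing the data), -0.00767 without healthy blood 2 and -0.334 without LLC tumor 1, which was then called (adjusted p = 0.0194). In the blood comparison it was -0.101 for Pdcd1lg2 without healthy blood 1, -0.00835 (upper-quartile factors), -0.0487 (without healthy blood 2) and -0.00791 (without LLC tumor 1) for Sirpa, and 0.0229 (library totals), 0.0499 (without LLC blood 1) and 0.00747 (without LLC blood 2) for Cd47. On leaving out a library these values reached at most 0.252 (Lgals9), 0.495 (Pdcd1lg2, without healthy blood 2) and 0.0714 (Sirpa), and at least -0.0552 (Cd47). The cause was not tested.

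The members called in blood numbered 1 with library totals, 3 in the fit of those 6 libraries and 0 to 2 on leaving out a library, 2 of them without LLC tumor 1. Genes called in blood numbered 2917, but 4889 in the 6-library fit, 1386 at an adjusted p under 0.01, and between 1494, when LLC blood 2 was left out, and 5064, when LLC tumor 1 was. Upper-quartile factors moved the share higher among genes called in blood from 59.4% to 46.3%, and library totals moved it from 48.3% to 36.3% in LLC tumor against LLC blood. Replicate numbers are shared across the groups, but same-numbered libraries correlated at 0.298, 0.158 and 0.0488 in blood, at -0.00694, 0.164 and -0.111 between LLC blood and LLC tumor and at 0.0628, 0.0235 and 0.0878 between LLC tumor and healthy blood (deviations from the group means, across genes), and LLC blood 2 correlated best with healthy blood 3 (0.193). Not every pair exceeded 0.1, so the numbers were not taken as pairs; a shared mouse or day is not given in the labels used here. With the replicate block 2788, 7455 and 8092 genes and 0, 7 and 7 members were called, against 2917, 7566 and 8208 genes and 0, 7 and 7 members without it. The counts of the pathway lists without LLC tumor 1, an alternative chosen after seeing the data, are given with the lists. At 6 to 34 counts per library, depth limits Pdcd1lg2 in particular.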
